A study of Mus musculus with 42 samples.

Results

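RNA sequencing of cultured iPax7 myogenic precursors grown with doxycycline (iPax7 +Dox, 3 libraries) was compared with RNA sequencing of satellite cells (SC, 3 libraries), the 6 libraries of these conditions among the 8 RNA libraries of the series. iPax7 is a mouse embryonic stem cell (ESC) line in which Pax7 is switched on by doxycycline (Dox). The precursors were PDGFαR+Flk-1- cells sorted from embryoid bodies and expanded in serum and FGF with Dox at 0.75 µg/ml. The satellite cells were freshly isolated, by sorting, from skeletal muscle of mice that carry a Pax7-ZsGreen reporter. The age and sex of the mice, and whether the 3 libraries of a condition came from separate cultures or animals, are not given in the sources used here, so p-values measure the spread between these libraries, which may be technical. The remaining 2 RNA libraries, iPax7 cells 3 days after Dox withdrawal, entered the fit only to estimate that spread.

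Satellite cells are the stem cells of adult skeletal muscle. They lie between the muscle fiber and its basal lamina, express the paired-box factor Pax7, and stay out of the cell cycle until the muscle is injured. Upon activation they turn on Myod1, divide, and either fuse into fibers or return to rest, and Notch signaling is known to hold them in the resting state. An ESC-derived precursor that is made to express Pax7 shares the factor but not the niche, the age or the cell cycle state of the tissue stem cell.

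Libraries held 48203901 to 54674619 counts on genes in iPax7 +Dox and 39010958 to 43811197 in SC. Of all records in the tables, reads that mapped to more than 1 place made up 7.11 to 7.60% in iPax7 +Dox and 23.6 to 30.7% in SC, and these were not counted on genes. Values below are normalized counts, i.e. counts scaled for library size and composition but not for transcript length, so they compare libraries and not genes. Log2 fold changes are iPax7 +Dox minus SC, with the standard error (SE), and are positive where iPax7 +Dox was higher. A gene was called with an adjusted p under 0.05 (edgeR quasi-likelihood test, Benjamini-Hochberg) and a difference of at least 2-fold. Cell source, sorting, culture and library preparation all differ between the conditions and cannot be told apart in any result below. In these bulk samples, fewer cells of a type and less RNA per cell cannot be told apart either.

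Of 14836 genes tested, 2707 (18.2%) were higher in iPax7 +Dox and 3545 (23.9%) were higher in SC. The difference was larger in size on the satellite cell side. Genes higher in iPax7 +Dox had a median log2 fold change of 2.14 and those higher in SC one of -3.44, against -0.17 over all genes tested. At least 64-fold differences were found for 329 genes in the iPax7 +Dox direction and for 1188 genes in the SC direction, and 751 of the genes higher in SC had no read in any iPax7 +Dox library while 167 of those higher in iPax7 +Dox had none in any SC library. Genes higher in SC took up 48.6 to 51.5% of the normalized counts of the satellite cell libraries and 9.56 to 12.3% of those of iPax7 +Dox. Genes higher in iPax7 +Dox took up 31.1 to 34.2% of their own libraries and 6.51 to 7.11% of SC. The 3 libraries of each condition did not overlap for 8376 of the 14836 genes tested. Among these were 2662 of the 2707 genes higher in iPax7 +Dox, 3338 of the 3545 higher in SC and 2376 of the 8584 not called. Lack of overlap was thus usual for a called gene. The lists of gene classes described below held 490 (18.1%) of the genes called higher in iPax7 +Dox and 677 (19.1%) of those called higher in SC. Counts of list members are to be read against the shares over all genes tested, 18.2% in iPax7 +Dox and 23.9% in SC.

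**Figure D1:**
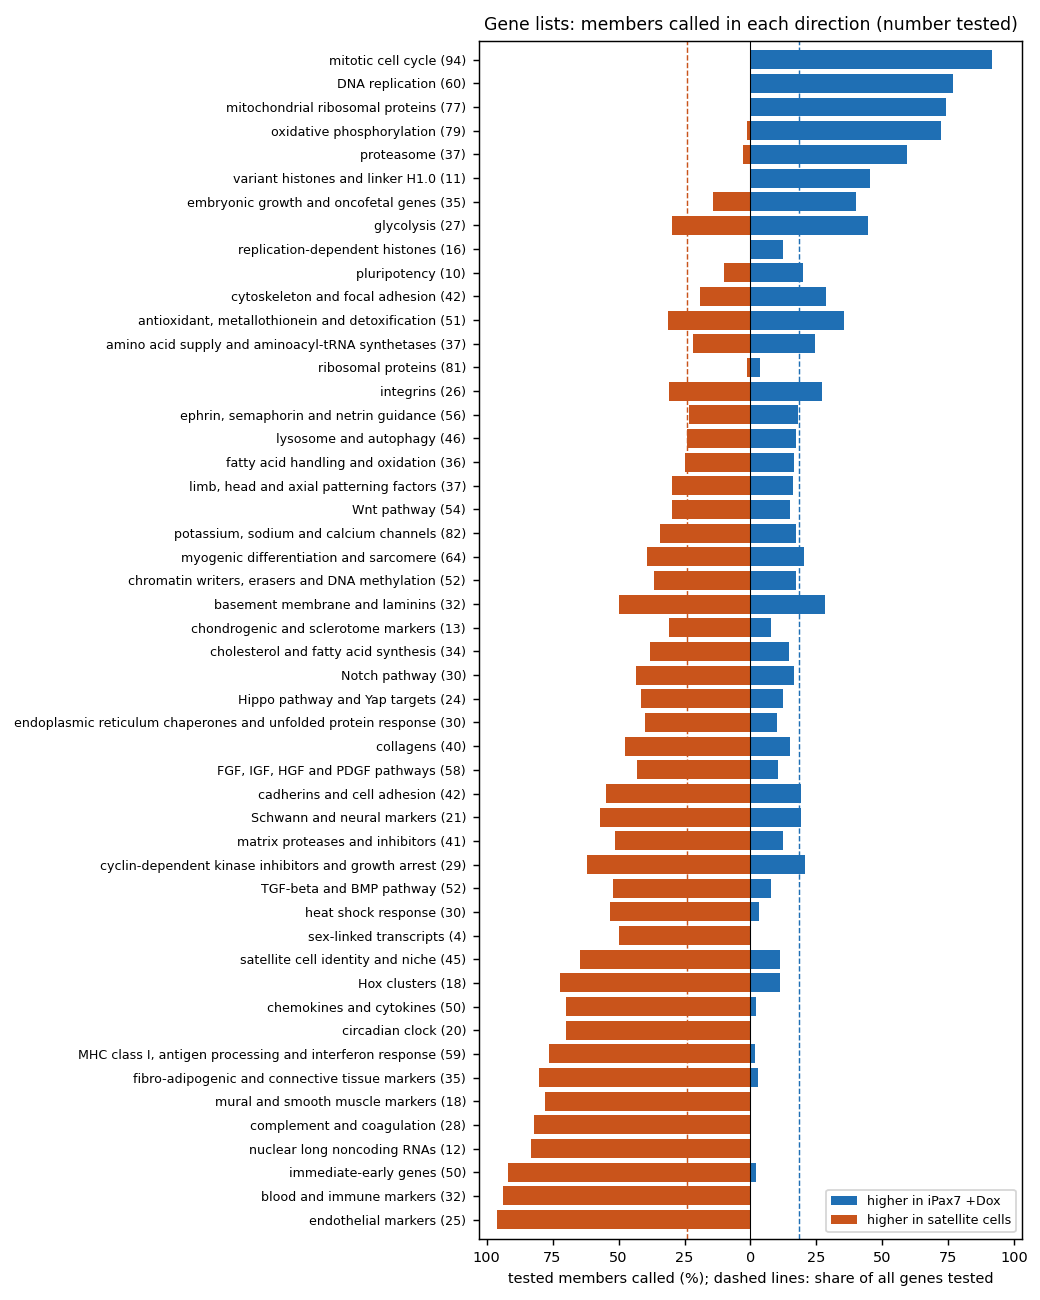
Share of the tested members of each gene list (rows, number tested in parentheses) that was called higher in iPax7 +Dox (right) or in SC (left), in percent; dashed lines mark the shares over all genes tested, 18.2% and 23.9%. Mitotic, replication, mitochondrial and proteasome lists lie to the right, and endothelial, blood, immediate-early, complement and connective tissue lists lie to the left.

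Markers of other cell types that live in muscle are given here first, ahead of the muscle genes. Of 25 endothelial markers tested, 24 were higher in SC and 0 in iPax7 +Dox, with a median log2 fold change of -9.84, or -7.65 with genes at 0 set to a floor of 3 counts in each library, which is also the floor behind every fold given below as "at least". Their summed normalized counts were 1046 to 1889 in iPax7 +Dox and 37901 to 49069 in SC, i.e. 0.074 to 0.093% of a satellite cell library. Cdh5, the vascular cadherin, had no read in iPax7 +Dox and 2601, 3839 and 3259 in SC, at least 1346-fold higher. Kdr and Cldn5 also had no read in iPax7 +Dox, and Pecam1 had 1 read in the 3 iPax7 +Dox libraries together against 4515, 6702 and 4041 in SC.

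Blood and immune markers were higher in SC for 30 of 32 tested and in iPax7 +Dox for 0 of 32. Their summed level was 592 to 705 in iPax7 +Dox and 17232 to 58478 in SC. Ptprc (CD45), which marks blood cells, and Csf1r, the macrophage growth factor receptor, had no read in iPax7 +Dox, and in SC Ptprc lay at 392, 331 and 584. The macrophage gene C1qa was read in only 2 of the 3 satellite cell libraries, at 31.6 and 3.96, and did not enter the test. Cd68 was not called (log2 fold change -1.56). S100a9, a neutrophil gene, was at 4899 in satellite cell replicate 1 and at 324 and 33.0 in replicates 2 and 3.

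Fibro-adipogenic and connective tissue markers were higher in SC for 28 of 35 tested and in iPax7 +Dox for 1 of 35, and summed to 39776 to 44558 in iPax7 +Dox and 284689 to 513083 in SC. Col1a1, the main chain of fibrillar collagen, lay at 2.25, 1.48 and 3.64 in iPax7 +Dox and at 39900, 36016 and 12711 in SC. Dcn, a proteoglycan of connective tissue, lay at 24.0, 28.1 and 98.3 against 21209, 14280 and 23412. Pdgfra, the receptor used to sort the ESC-derived precursors at an earlier stage, had 2 reads in all iPax7 +Dox libraries and lay at 176, 245 and 216 in SC. The groups did not overlap for any of these genes, as for most called genes. Col3a1 and the tendon gene Tnmd were also called higher in SC (log2 fold change -3.54 and -12.8). Ly6a (0.95) and the tendon gene Scx (2.49) lay towards iPax7 +Dox and were not called.

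Mural cell markers were higher in SC for 14 of 18 tested (0 of 18 higher in iPax7 +Dox), and summed to 6961 to 11142 in iPax7 +Dox and 69035 to 87908 in SC. Rgs5, a pericyte gene, was 831-fold higher in SC, whereas Acta2 was not called (log2 fold change -0.85). Schwann and neural markers were split, with 12 of 21 higher in SC and 4 of 21 in iPax7 +Dox, and summed to 12804 to 14216 and 35038 to 41597. The neurofilament gene Nefl lay at 1758, 1908 and 2150 in iPax7 +Dox and had 4 reads in SC. Of 13 chondrogenic and sclerotome markers, 4 were higher in SC and 1 in iPax7 +Dox, Sox9 being 13.4-fold higher in SC and the cartilage proteoglycan gene Acan having 1 read in SC against 128 to 372 in iPax7 +Dox. The part of other cell types in the results below was not tested.

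**Figure D2:**
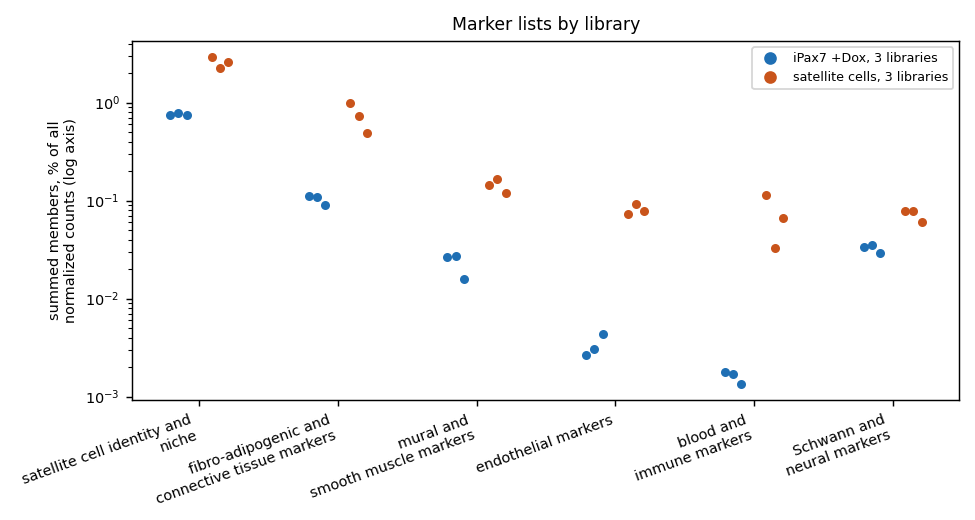
Summed normalized counts of each marker list as percent of the library (y axis, log scale) in the 3 iPax7 +Dox and the 3 SC libraries (one point per library). Every list is higher in all SC libraries, the satellite identity list lies between 2.27 and 2.92% of SC libraries, and endothelial and blood markers lie at or below 0.114%.

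The genes that define satellite cells were mostly higher in SC, although the master regulator itself was not. Of 45 genes of satellite cell identity and niche, 29 were higher in SC and 5 in iPax7 +Dox, with a median log2 fold change of -2.73, and the list made up 2.27 to 2.92% of SC libraries and 0.745 to 0.779% of iPax7 +Dox libraries. Pax7 (chr4:139292977-139389445 in mm9) lay at 12759, 14130 and 11610 in iPax7 +Dox and at 8504, 3926 and 5456 in SC. The groups did not overlap, and the log2 fold change of 1.11 (SE 0.30, edgeR adjusted p = 0.015) fell to 0.87 without satellite cell replicate 2, under the 2-fold limit. Reads on the Pax7 symbol include those from the Dox-driven transgene. Without that library the list held 3 genes higher in iPax7 +Dox.

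Myf5, the myogenic factor that is already transcribed in resting satellite cells, was read at a high level in both conditions and not called. It lay at 111006, 130651 and 190092 in iPax7 +Dox and at 122890, 104725 and 140603 in SC, with overlapping groups (log2 fold change 0.23, SE 0.25, edgeR adjusted p = 0.486). Myod1, the factor of activated satellite cells and myoblasts, lay at 161, 118 and 321 in iPax7 +Dox and at 20392, 26074 and 22421 in SC. All SC libraries were far above all iPax7 +Dox libraries, and the ratio of means was 115 (log2 fold change -6.84, SE 0.46, edgeR adjusted p = 1.14e-05). Pax3, the paralog of Pax7 that acts in the embryonic dermomyotome, was 12.6-fold higher in SC from a low level, 429 to 988 against 29.1 to 78.9. Msc (musculin), a repressor of the same bHLH class as Myod1, had 1 read in iPax7 +Dox and lay at 2154, 5371 and 3322 in SC.

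Most surface proteins of satellite cells described here were higher in SC, to very different degrees, and a few were not. Calcr, the calcitonin receptor of resting satellite cells, had 3 reads in the 3 iPax7 +Dox libraries together and lay at 14218, 9206 and 13578 in SC. Itga7, the laminin-binding integrin chain of muscle, lay at 567, 481 and 61.9 against 28459, 36933 and 14052, a 71.5-fold difference. Sdc4, a heparan sulfate proteoglycan that binds FGF, lay at 40417, 48809 and 48447 against 786929, 476110 and 700880, or 14.3-fold. Cd34 (13.7-fold), Cxcr4 (6.66-fold), Vcam1 (3.91-fold) and Cdh15 (M-cadherin, 3.64-fold) were also higher in SC, and none of these overlapped between the groups. Cdh4 (R-cadherin) went the other way, at 6640, 5964 and 2380 in iPax7 +Dox and at 437, 863 and 1695 in SC (edgeR adjusted p = 0.013). The proteoglycan Sdc3 was 2.18-fold higher in iPax7 +Dox, a call that was lost without iPax7 +Dox replicate 1 (log2 fold change 1.01, highest edgeR adjusted p = 0.0808), and the integrin chain Itgb1 overlapped between the groups and was not called. With Pax7, the cell cycle inhibitor Cdkn1c and Lgr6, read at 16.5, 33.3 and 25.5 in iPax7 +Dox and not in SC and named after its values were seen, these were the 5 list members higher in iPax7 +Dox.

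**Figure D3:**
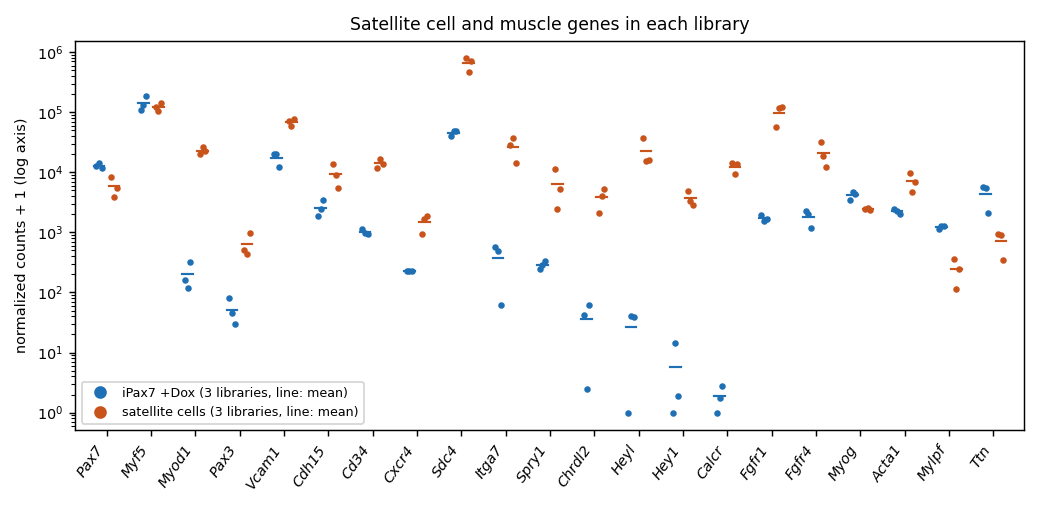
Normalized counts plus 1 (y axis, log scale) of satellite cell and muscle genes in each of the 3 iPax7 +Dox and 3 SC libraries, with lines at the means. Pax7 and Myf5 lie close together in both conditions, whereas Myod1, Calcr, Heyl, Hey1 and Itga7 lie far apart, and Mylpf and Ttn are higher in iPax7 +Dox.

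Genes of muscle differentiation did not move together. Of 64 tested, 25 (39.1%) were higher in SC, against 23.9% of all genes tested. In iPax7 +Dox 13 (20.3%) were higher, near the 18.2% of all genes tested. The median log2 fold change was -1.46, and 15 were higher in SC under a stricter filter that kept only well-expressed genes (at least 10 CPM in 3 libraries). Myog, which drives fusion and terminal differentiation, was read in both, at 3488, 4616 and 4348 in iPax7 +Dox and at 2416, 2587 and 2353 in SC. The groups did not overlap, but the difference of 1.69-fold was below the 2-fold limit (edgeR adjusted p = 0.0153). The fast light chain Mylpf (5.10-fold), the giant sarcomere protein Ttn (6.12-fold), tropomyosin Tpm1 (13.4-fold) and the acetylcholine receptor subunit Chrnd (18.7-fold) were higher in iPax7 +Dox. Musk, the receptor kinase of the neuromuscular junction, lay at 96.9, 127 and 53.7 in iPax7 +Dox and at 26275, 43646 and 42119 in SC, a 403-fold difference. Actn3 (114-fold), Ckm (119-fold) and Mef2c (14.7-fold) were also higher in SC, together with skeletal actin Acta1 (3.15-fold). The fast troponin Tnnt3 and light chain Myl1 overlapped between the groups and were not called.

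Genes of the cell cycle were mostly higher in the cultured cells. Of 94 genes of the mitotic cell cycle, 86 were higher in iPax7 +Dox and 0 in SC, with a median log2 fold change of 4.05, and they made up 0.912 to 1.15% of iPax7 +Dox libraries and 0.081 to 0.091% of SC libraries. Ccnb1, the mitotic cyclin B1, lay at 22156, 23046 and 20265 in iPax7 +Dox and at 640, 174 and 51.4 in SC. Cdk1, its kinase partner, lay at 11563, 12448 and 16801 against 588, 79.1 and 207, a 46.7-fold difference (log2 fold change 5.54, SE 0.69, edgeR adjusted p = 0.000264). Neither gene came near overlap.

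Top2a, the topoisomerase that untangles sister chromatids, was 32.0-fold higher in iPax7 +Dox, with replicate 3 at 7585 below replicates 1 and 2 at 23794 and 23308. Mki67, the proliferation antigen, was 11.2-fold higher. Gtse1, a microtubule-associated G2 protein, lay at 11636, 13652 and 7390 in iPax7 +Dox against 57.9, 14.7 and 27.7 in SC (326-fold), and the centromere gene Cenph was 160-fold higher. Ccnd1, the G1 cyclin, differed less, at 11582, 10960 and 14152 against 1551, 1469 and 1718 (7.74-fold).

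Genes of DNA replication followed with 46 of 60 higher in iPax7 +Dox and 0 in SC, at a median log2 fold change of 2.67. The replicative helicase subunits Mcm2 (14.4-fold) and Mcm5 (6.91-fold), thymidine kinase Tk1 (41.0-fold) and the maintenance methylation cofactor Uhrf1 (28.8-fold) were among them. Pcna, the sliding clamp, was not called and lay at 8859, 9673 and 12038 in iPax7 +Dox and at 8315, 7856 and 11580 in SC (edgeR adjusted p = 0.669). Of 16 replication-dependent histone genes with enough counts to be tested, out of 65 in the table, 2 were higher in iPax7 +Dox.

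Promoters of G2/M genes carry CCAAT boxes, which bind NF-Y, and the CHR element (TTTGAA or TTCGAA), which binds the DREAM and MMB complexes. Both were searched on both strands in the 250 bases upstream of RefSeq start sites (GRCm38.p6). CCAAT was found in 59 of 83 promoters of the mitotic genes (71.1%), against 34.7% of the 14364 promoters of genes tested and 33.9% of all promoters in the table. TTTGAA or TTCGAA was found in 31 of 83 (37.3%), against 12.4% of the promoters of genes tested and 17.1% of all promoters, and both together in 26 of 83 (31.3%) against 4.63%. Among replication genes CCAAT was found in 29 of 59 (49.2%). A match describes these letters and is not evidence of binding. The 150 bases upstream of the start site of 3 mitotic genes with large differences are printed 5′ to 3′ to show how these letters are arranged, with CCAAT (or ATTGG) and TTTGAA or TTCGAA (or TTCAAA) in capitals. They are Ccnb1 (chr13:100786487-100786636, minus strand), Cdk1 (chr10:69352913-69353062, minus strand) and Top2a (chr11:99024190-99024339, minus strand).

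Ccnb1: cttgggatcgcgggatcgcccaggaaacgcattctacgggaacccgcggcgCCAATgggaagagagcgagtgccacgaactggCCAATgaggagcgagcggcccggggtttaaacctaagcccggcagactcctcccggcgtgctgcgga
Cdk1: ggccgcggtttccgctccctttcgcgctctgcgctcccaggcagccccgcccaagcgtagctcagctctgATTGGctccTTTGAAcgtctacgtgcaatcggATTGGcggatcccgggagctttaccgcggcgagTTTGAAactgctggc
Top2a: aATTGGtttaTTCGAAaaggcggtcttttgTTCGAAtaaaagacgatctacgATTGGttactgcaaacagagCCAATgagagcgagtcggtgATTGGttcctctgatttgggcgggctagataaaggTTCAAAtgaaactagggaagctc

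Inhibitors of the cell cycle went in both directions. Of 29 cyclin-dependent kinase inhibitors and growth arrest genes, 18 were higher in SC and 6 in iPax7 +Dox, with a median log2 fold change of -1.84. Cdkn1b (p27), which holds resting satellite cells out of S phase, lay at 204, 224 and 533 in iPax7 +Dox and at 3033, 1267 and 3480 in SC (8.09-fold). Cdkn1a (p21) was 2.35-fold higher in SC and the antiproliferative gene Btg2 30.3-fold. Cdkn2a, the Ink4a/Arf locus, went the other way, at 890, 782 and 1597 in iPax7 +Dox with 1 read in SC, and Cdkn2b next to it was 19.7-fold higher in iPax7 +Dox. Ccng1 (cyclin G1) was 24.4-fold higher in iPax7 +Dox. Cdkn1c (p57) was called higher in iPax7 +Dox by 2.16-fold, a call that was lost without iPax7 +Dox replicate 3 (log2 fold change 0.92), SC replicate 1 (0.93) or SC replicate 2 (edgeR adjusted p = 0.0513).

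Immediate-early genes, which are transcribed within minutes of a stimulus and encode transcription factors and regulators of mRNA decay, were the counterpart in SC. Of 50 tested, 46 were higher in SC and 1, Dusp6, in iPax7 +Dox, with a median log2 fold change of -5.07. The list made up 3.03 to 4.80% of SC libraries and 0.128 to 0.194% of iPax7 +Dox libraries. Fos (chr12:86814840-86818223 in mm9), an AP-1 subunit, lay at 321, 558 and 311 in iPax7 +Dox and at 425653, 158623 and 223702 in SC, a 679-fold difference (log2 fold change -9.41, SE 0.56, edgeR adjusted p = 7.75e-06). The lowest SC library was far above the highest iPax7 +Dox library.

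Fosb (5231-fold), Atf3 (1913-fold), the orphan receptor Nr4a1 (430-fold), Junb (114-fold), Egr1 (97.8-fold) and Jun (23.6-fold) were also higher in SC. Myc lay at 7531, 6962 and 6918 in iPax7 +Dox and at 118016, 149572 and 154469 in SC (19.7-fold), so this growth regulator was higher in the condition with the lower mitotic genes. Zfp36, which binds AU-rich mRNAs and hastens their decay, lay at 1115, 676 and 789 against 445238, 220757 and 249002 (355-fold). The CArG box, which binds serum response factor, was found on either strand in 6 of 53 upstream windows of immediate-early genes (11.3%), against 1.20% of the promoters of genes tested, and the cAMP response element TGACGTCA in 3 of 53 (5.66%) against 2.47%. The Zfp36 promoter is shown as a member with such a box (capitals, chr7:28379229-28379378, minus strand, GRCm38.p6).

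Zfp36: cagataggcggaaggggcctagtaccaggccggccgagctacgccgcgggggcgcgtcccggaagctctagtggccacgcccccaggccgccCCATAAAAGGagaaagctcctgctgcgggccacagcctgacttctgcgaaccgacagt

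Heat shock genes were more often higher in SC. Of 30 tested, 16 (53.3%) were higher in SC, against 23.9% of all genes tested. In iPax7 +Dox 1 (3.33%), the immunophilin Fkbp4, was higher, against 18.2% of all genes tested. Hspa1a, the inducible HSP70, lay at 6.01, 7.41 and 36.4 in iPax7 +Dox and at 106137, 9740 and 15551 in SC, and its near-identical copy Hspa1b behaved alike, although reads shared by the copies cannot be assigned to either. Satellite cell replicate 1 was the highest for Hspa1a, Dnajb1 (173922 against 24100 and 65880) and Hspb1 (9614 against 708 and 3321). Hspa8, the constitutive HSC70, which was chosen after its values were seen as the gene with the largest difference in counts, took 2.25 to 3.26% of SC libraries and 0.618 to 0.828% of iPax7 +Dox libraries.

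Genes of the endoplasmic reticulum and the unfolded protein response were higher in SC for 12 of 30 and in iPax7 +Dox for 3 of 30. Hspa5 (BiP), the main chaperone of the compartment, lay at 44307, 46848 and 38661 in iPax7 +Dox and at 519999, 434010 and 471167 in SC (11-fold). Herpud1 (16-fold), Dnajb9 (17-fold), Atf4 (7.12-fold) and the phosphatase subunit Ppp1r15a (130-fold) were higher in SC. The chaperone Hsp90b1 was not called (edgeR adjusted p = 0.76), and Pdia4, a disulfide isomerase (3.23-fold), and asparagine synthetase Asns (4.68-fold), itself a target of Atf4, were higher in iPax7 +Dox.

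**Figure D4:**
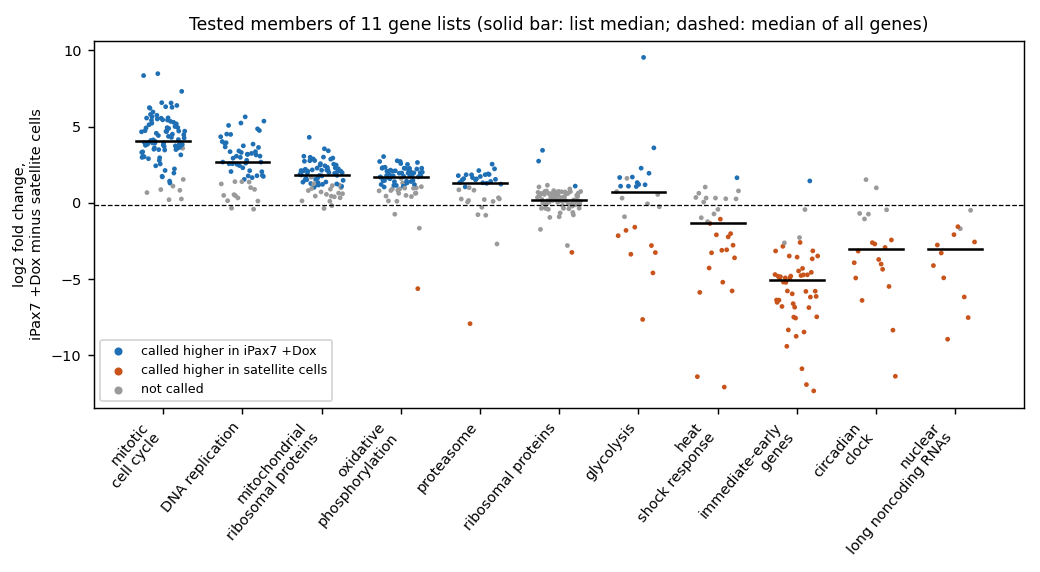
Log2 fold change (y axis, iPax7 +Dox minus SC) of every tested member of 11 gene lists, colored by call; solid bars are list medians and the dashed line is the median of all genes tested, -0.17. Mitotic and replication genes lie above the line (medians 4.05 and 2.67), ribosomal proteins lie around it (0.22), and immediate-early genes lie below it (-5.07).

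Mitochondrial genes were higher in iPax7 +Dox by a smaller but even margin. Of 79 nuclear genes of oxidative phosphorylation, 57 were higher in iPax7 +Dox and 1 in SC, with a median log2 fold change of 1.69, and of 77 mitochondrial ribosomal proteins 57 were higher in iPax7 +Dox and 0 in SC, with a median of 1.80. Ndufa4 lay at 19279, 22475 and 36830 in iPax7 +Dox and at 3250, 2745 and 3618 in SC (8.17-fold), and the ATP synthase subunit Atp5k was 6.76-fold higher. Among mitochondrial ribosomal proteins, Mrpl34 (19.6-fold) and Mrpl18 (11.7-fold) had large differences. The muscle-type subunits Cox6a2 and Cox7a1 were low in both conditions and not called. No mitochondrially encoded gene stood in the table. iPax7 +Dox replicate 3 was the highest library for both lists, at 3.11% of counts for oxidative phosphorylation against 2.16 and 2.35%.

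Cytoplasmic ribosomal proteins were mostly not called. Of 81 tested, 3 were higher in iPax7 +Dox and 1 in SC, or 6 in iPax7 +Dox without SC replicate 3, and the median log2 fold change was 0.22. Rpl3 lay at 132908, 140928 and 167060 in iPax7 +Dox and at 150235, 145839 and 163381 in SC. Many of these genes have near-identical processed copies in the genome, and the share of reads with more than 1 location was larger in SC. Proteasome subunits were higher in iPax7 +Dox for 22 of 37 and in SC for 1 of 37, with a median of 1.31, among them Psmd5 (5.79-fold) and Psma5 (4.33-fold).

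Sugar and lipid genes changed member by member. In glycolysis, 12 of 27 (44.4%) were higher in iPax7 +Dox and 8 (29.6%) in SC, against 18.2 and 23.9% of all genes tested. Pgk1 (3.83-fold), Eno3 (12.1-fold) and Ldhb (4.83-fold) were higher in iPax7 +Dox, whereas the entry steps were higher in SC, with hexokinase Hk2 at 2860, 2689 and 1899 against 10745, 32169 and 34170 and the glucose transporters Slc2a1 (3.50-fold) and Slc2a3 (24.2-fold). Pdk4, which closes pyruvate dehydrogenase to glucose carbon, was 6.97-fold higher in SC.

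Fatty acid handling genes were close to the background, with 6 of 36 higher in iPax7 +Dox and 9 of 36 in SC. The uptake genes Cd36, at 0, 0 and 8.20 in iPax7 +Dox and at 17231, 15320 and 14153 in SC, Fabp4 (629-fold) and Lpl (135-fold) were higher in SC. These genes are also known from endothelial cells, whose markers are given above, and from adipocytes, for which no separate marker list was made. Fabp5 (19.2-fold) and the lipid droplet protein Plin2 (3.25-fold) were higher in iPax7 +Dox. In cholesterol and fatty acid synthesis 13 of 34 were higher in SC and 5 in iPax7 +Dox, with Srebf2 6.88-fold and Insig1 6.14-fold higher in SC and Dhcr7 3.87-fold higher in iPax7 +Dox.

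Antioxidant and detoxification genes were called for 34 of 51, with 18 higher in iPax7 +Dox and 16 in SC. Gpx3, the secreted glutathione peroxidase, lay at 8987, 9855 and 12128 in iPax7 +Dox and at 1198900, 343384 and 636618 in SC (70.4-fold). Sod3, the extracellular superoxide dismutase, had no read in iPax7 +Dox and lay at 11857, 3894 and 3502 in SC, at least 2671-fold higher. The metallothioneins Mt1 (6.45-fold) and Mt2 (7.37-fold) were higher in SC. The glutathione transferase Gstt1 was 398-fold higher in SC, whereas other members of that family were higher in iPax7 +Dox, with Gsta4 at 24.8-fold and Gstp1 at 7.78-fold. The quinone reductase Nqo1 lay at 30062, 30108 and 37675 in iPax7 +Dox and at 197, 177 and 452 in SC (118-fold higher in iPax7 +Dox).

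Amino acid supply genes were close to the background shares of 18.2 and 23.9%, with 9 of 37 (24.3%) higher in iPax7 +Dox and 8 of 37 (21.6%) in SC. Phgdh, the entry to serine synthesis, was 10.1-fold higher in iPax7 +Dox, and the glutamine transporter Slc38a2 12.6-fold higher in SC. Lysosome and autophagy genes were close to the background, with 8 of 46 in iPax7 +Dox and 11 of 46 in SC. The protease Ctsd was 3.25-fold higher in iPax7 +Dox and the autophagy adaptor Gabarapl1 8.49-fold higher in SC.

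Several genes known from embryonic tissue were higher in the cultured cells. Of 35 embryonic growth and oncofetal genes tested, 14 were higher in iPax7 +Dox and 5 in SC, or 3 in SC when iPax7 +Dox replicate 1, 2 or 3 or SC replicate 3 was left out. Hmga2 (chr10:119798331-119913525 in mm9), a chromatin protein of fetal and self-renewing cells and a target of let-7, lay at 26828, 27080 and 21982 in iPax7 +Dox and at 10.5, 14.7 and 18.5 in SC. This was a 1735-fold difference without overlap (log2 fold change 10.75, SE 0.35, edgeR adjusted p = 9.72e-07). Igf2bp1, a fetal mRNA-binding protein, was 1733-fold higher, at 7146, 6649 and 4562 against 1.32, 2.68 and 6.59, and Igf2bp3 47.1-fold. Lin28a had no read in any library. Its paralog Lin28b was called higher in iPax7 +Dox (log2 fold change 4.87), a call that was lost under 5 of 14 alternatives. H19 and Gpc3 were not called, and the imprinted noncoding RNAs Meg3 (72.1-fold) and Rian (19.9-fold) were higher in SC.

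The core pluripotency factors were at or near 0 in both conditions. Of 29 such genes listed, 10 were tested, with 2 higher in iPax7 +Dox and 1 in SC, and the list summed to 851 to 1191 in iPax7 +Dox and 208 to 835 in SC. Most of the sum in iPax7 +Dox was Klf5, named after its values were seen, at 860, 767 and 906 in iPax7 +Dox and at 212, 105 and 282 in SC. Pou5f1 and Nanog had no read in any of the 6 libraries. Sox2 had no read in iPax7 +Dox. Zfp42 was read at 19.5, 12.6 and 39.2 in iPax7 +Dox and not in SC, and its call was lost under 9 of 14 alternatives, among them leaving out any 1 of the 6 libraries (highest edgeR adjusted p = 0.102).

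Hox genes, which record position along the body axis, differed in which members were read. Of 39 Hox genes listed, 18 were tested, with 13 higher in SC and 2 in iPax7 +Dox, and 11 of the 18 had no read in iPax7 +Dox. Hoxc10, a gene of lumbar and hindlimb levels, lay at 3920, 2182 and 2638 in SC, at least 1213-fold higher, and Hoxa10 at 2596, 412 and 413. Hoxb9 went the other way, at 795, 792 and 1117 in iPax7 +Dox and at 1.32, 55 and 1.32 in SC (47.0-fold). Counts were low, and 1 of the 13 was called under the filter of at least 10 CPM.

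Limb, head and axial patterning factors were near the background shares of 23.9 and 18.2%, with 11 of 37 tested (29.7%) higher in SC and 6 (16.2%) in iPax7 +Dox. Pitx1 had no read in any library and Lbx1 none in iPax7 +Dox. Meox2, a limb muscle homeobox gene, had 1 read in iPax7 +Dox and lay at 856, 410 and 136 in SC, and the transcriptional cofactor Eya1 was 92.2-fold higher in SC. Meis1 was 4.42-fold higher in iPax7 +Dox.

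RNA of several Notch receptors, ligands and targets was higher in SC, but not that of every target. Of 30 pathway genes 13 were higher in SC, 12 were not called and 5 were higher in iPax7 +Dox, or 3 in iPax7 +Dox without iPax7 +Dox replicate 3 or SC replicate 1. The targets Heyl and Hey1, which keep satellite cells at rest, lay at 0, 39.2 and 37.3 and at 0, 13.3 and 0.911 in iPax7 +Dox, and at 37832, 15195 and 15912 and 4851, 3386 and 2861 in SC. Both were many-fold higher in every SC library, by 900-fold and 779-fold in the means. Notch1 (12.7-fold), Notch3 (27.5-fold), Dll1 (27.7-fold) and Jag1 (332-fold) were also higher in SC. Hes1, another target, lay at 399, 491 and 511 in iPax7 +Dox and at 3314, 257 and 746 in SC, with overlapping groups, and was not called (log2 fold change -1.62, edgeR adjusted p = 0.11). Its log2 fold change was -0.11 without SC replicate 1 and -2.12, past the threshold, without SC replicate 2. Hes6, a relative that counteracts Hes1, was 11.2-fold higher in iPax7 +Dox, a call that was lost without SC replicate 2 (highest edgeR adjusted p = 0.054). Notch3 is known from mural cells as well, whose markers are given above.

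Growth factor genes were higher in SC for 25 of 58 and in iPax7 +Dox for 6 of 58. Fgfr1 lay at 1946, 1559 and 1691 in iPax7 +Dox and at 57209, 116457 and 120713 in SC (56.7-fold), and Fgfr4 was 11.6-fold higher in SC. Their antagonist Spry1, which returns satellite cells to rest, lay at 245, 281 and 338 against 11314, 2415 and 5220 (21.9-fold), and Spry2 was 6.21-fold higher. Among other genes induced by FGF, Etv4 was 43.4-fold and Dusp6 2.70-fold higher in iPax7 +Dox and Etv5 was not called. Igf1 was 113-fold higher in SC, and Fgfr2 (17.8-fold) and the ligand Pdgfc (114-fold) in iPax7 +Dox.

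In the TGF-beta and BMP pathway 27 of 52 were higher in SC and 4 in iPax7 +Dox (2 without iPax7 +Dox replicate 2). Bmp4 (7.44-fold), Bmp2 (310-fold) and the coreceptor Tgfbr3 (109-fold) were higher in SC, and so was Chrdl2, an antagonist of BMPs and a satellite cell marker (109-fold). Mstn, the brake on muscle growth, lay at 2228, 2022 and 1835 in iPax7 +Dox and at 0, 13.4 and 169 in SC (33.4-fold higher in iPax7 +Dox). The BMP targets Id1, Id2 and Id3 overlapped between the groups and were not called.

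Wnt genes were near the background, with 16 of 54 higher in SC and 8 in iPax7 +Dox. The receptor Ror1 had no read in iPax7 +Dox (at least 1359-fold higher in SC) and Lgr4 was 4.10-fold higher in SC, while Fzd3 (4.08-fold) and Lrp4 (6.07-fold) were higher in iPax7 +Dox. In the Hippo list 10 of 24 were higher in SC and 3 in iPax7 +Dox, or 1 in iPax7 +Dox without its replicate 3. The Yap targets Ctgf (56.0-fold) and Cyr61 (11.2-fold), which are immediate-early genes as well, were higher in SC, whereas Yap1 and Ankrd1 were not called.

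Extracellular matrix genes were more often higher in SC. Of 40 collagens 19 were higher in SC and 6 in iPax7 +Dox, and the fibrillar and microfibrillar chains Col3a1 (11.6-fold), Col5a1 (56.7-fold) and Col6a1 (874-fold) moved with Col1a1 and the other fibro-adipogenic markers described above. Col4a1, a basement membrane chain, was 5.03-fold higher in SC, but Col4a5 (26-fold) and Col18a1 (4.94-fold) were higher in iPax7 +Dox. Basement membrane genes were higher in SC for 16 of 32 and in iPax7 +Dox for 9 of 32. Npnt (nephronectin), an integrin ligand of developing tissue, lay at 20288, 18062 and 17573 in iPax7 +Dox and at 55.3, 323 and 328 in SC (79.1-fold). The laminin chain Lama3 was 47.6-fold higher in SC.

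Matrix proteases and their inhibitors were higher in SC for 21 of 41 and in iPax7 +Dox for 5 of 41. Adamts4 (187-fold), Adamts1 (28.0-fold), Mmp2 (6.59-fold) and Timp3 (179-fold) were higher in SC, and Timp1 (6.61-fold), Serpine2 (10.1-fold) and Mmp11 (9.14-fold) in iPax7 +Dox. Among 26 integrins, 8 (30.8%) were higher in SC and 7 (26.9%) in iPax7 +Dox, against 23.9 and 18.2% of all genes tested. Itgb1, the common beta chain, overlapped between the groups, and the alpha chains diverged, with Itga7 and Itga5 (7.03-fold) higher in SC and Itga3 (13.4-fold) higher in iPax7 +Dox together with Itgb4 (14.5-fold).

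Cadherins and adhesion molecules were higher in SC for 23 of 42 and in iPax7 +Dox for 8 of 42. Ncam1 (10.5-fold) and Icam1 (197-fold) were higher in SC in addition to M-cadherin and Vcam1. Cdh2 (N-cadherin) lay at 12428, 11713 and 9455 in iPax7 +Dox and at 886, 497 and 160 in SC (21.8-fold), and Cdh6, a cadherin of the embryonic mesoderm and neural crest, was 95.6-fold higher in iPax7 +Dox. Guidance genes were near the background (10 of 56 in iPax7 +Dox, 13 of 56 in SC), with Sema3e 264-fold and Efna5 13.2-fold higher in iPax7 +Dox and Sema6a 13.6-fold higher in SC. Of 82 channel genes tested 28 (34.1%) were higher in SC, against 23.9% of all genes tested. In iPax7 +Dox 14 (17.1%) were higher, near the 18.2% of all genes tested, or 9 and 8 without iPax7 +Dox replicate 1 or 2. Among the channel genes called were Scn3b (113-fold, in iPax7 +Dox) and Kcnma1 (84.6-fold, in SC).

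Cytoskeletal genes were higher in iPax7 +Dox for 12 of 42 and in SC for 8 of 42. Tubulins Tubb5 (7.34-fold) and Tuba1b (4.56-fold), Stmn1, which destabilizes microtubules (9.71-fold), and the lectin Lgals1 (7.48-fold) were higher in iPax7 +Dox. The actin crosslinker Flnc was 26.4-fold higher in SC, and Actb and Vim overlapped between the groups.

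Most inflammatory and immune genes were higher in SC. Of 50 chemokines and cytokines 35 were higher in SC, 14 were not called and 1, the receptor subunit Il18rap, was higher in iPax7 +Dox, with a median log2 fold change of -6.95, or -5.95 with genes at 0 set to their bound. Cxcl1, a neutrophil chemokine, lay at 341, 257 and 457 in iPax7 +Dox and at 196142, 191874 and 237708 in SC (593-fold, log2 fold change -9.21, SE 0.37, edgeR adjusted p = 1.36e-06). Ccl2 (158-fold), Il6 (37.8-fold) and Cxcl12 (54.5-fold) were higher in SC, and Csf3 had no read in iPax7 +Dox. Chemokines and cytokines made up 0.678 to 0.735% of SC libraries. Blood and immune markers together made up 0.033 to 0.114%, with Ptprc at 331 to 584. Such values do not compare genes, and which cells held the chemokine RNA was not tested.

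Antigen presentation and interferon response genes were higher in SC for 45 of 59 and in iPax7 +Dox for 1 of 59, Ly6e. H2-D1, a class I heavy chain, was 63.5-fold higher in SC, and the light chain B2m 3.27-fold, from 7368, 9036 and 14500 to 31118, 19155 and 50837. H2-K1 lay at 941, 980 and 42866 in SC, with SC replicate 3 far above the others, and was not called by limma-voom (adjusted p = 0.0766). Its log2 fold change was -6.84, and -2.88 without SC replicate 3. It shares long stretches with H2-D1, so its reads are uncertain. Tap1, the peptide transporter, was not called. Complement and coagulation genes were higher in SC for 23 of 28 and in iPax7 +Dox for 0 of 28, among them the inhibitor Serping1 (193-fold), at 400, 395 and 426 against 100892, 56168 and 78586, and C3, which had no read in iPax7 +Dox. Markers of blood, endothelial and connective tissue cells moved in the same direction as these lists, and their part in them was not tested.

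The circadian clock, long noncoding RNAs and chromatin regulators made up smaller groups. Of 20 clock genes 14 were higher in SC and 0 in iPax7 +Dox, with a median log2 fold change of -3.05. Nr1d1 (REV-ERB alpha) lay at 729, 594 and 446 in iPax7 +Dox and at 37639, 21023 and 20512 in SC (44.7-fold), Arntl (BMAL1), which it represses, was 15.2-fold higher in SC as well, and the output genes Dbp and Tef were not called. Of 12 long noncoding RNAs, labeled nuclear in the figures, 10 were higher in SC and 0 in iPax7 +Dox. Their place in the cell was not tested. Malat1 lay at 105560, 93627 and 12110 in iPax7 +Dox, where replicate 3 stood well below the others, and at 478107, 586579 and 372235 in SC. Gas5 was 30.3-fold and Neat1 5.92-fold higher in SC.

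Chromatin genes were higher in SC for 19 of 52 (36.5%), against 23.9% of all genes tested. In iPax7 +Dox 9 of 52 (17.3%) were higher, near the 18.2% of all genes tested, or 5 without SC replicate 1. The maintenance methyltransferase Dnmt1 was 6.53-fold higher in iPax7 +Dox and the dioxygenase Tet2 15.6-fold higher in SC. Kdm6b, which removes methyl groups from H3K27, lay at 3609, 4563 and 8583 against 108135, 35789 and 133051 (16.5-fold higher in SC), while the methyltransferase Ezh2 overlapped between the groups. Variant histones were higher in iPax7 +Dox for 5 of 11, or 3 of 11 without iPax7 +Dox replicate 3, with H2afz at 2.62-fold. Xist had 10 reads in all iPax7 +Dox libraries and 13 in all SC libraries, and 2 of 4 sex-linked genes tested, Ddx3y (14.8-fold) and Kdm5d (15.6-fold), were higher in SC.

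The single genes with the largest fold changes, at a mean of at least 1000 in the higher condition and without overlap, were of mixed function. In SC, besides Sod3, Cdh5, Ror1 and Casp4, they included Ednrb, the endothelin receptor B, at least 1593-fold higher, and Tfpi2, a protease inhibitor of the matrix, at least 1696-fold. Esr1, estrogen receptor alpha, had 1 read in iPax7 +Dox and lay at 9267, 9619 and 11462 in SC, and Neu2, a cytosolic sialidase, had 1 read against 5404, 19200 and 20984. Vtn (vitronectin) had 1 read against 8645, 9730 and 10331.

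In iPax7 +Dox the anion exchanger Slc26a7 had no read in SC and was at least 345-fold higher. Krt8, a keratin of simple epithelia and early embryos, lay at 10839, 12258 and 17121 against 11.8, 5.36 and 7.91 (1601-fold). Cyp1b1 and the recombination gene Rad54b had 1 read each in SC, against 1002 to 2271 and 1221 to 1763 in iPax7 +Dox. Msln (mesothelin), a surface protein of mesothelium, was chosen after its values were seen, from the genes with the largest differences in normalized counts, and lay at 115100, 117692 and 101673 in iPax7 +Dox and at 219, 307 and 335 in SC (log2 fold change 8.60, SE 0.31, edgeR adjusted p = 9.72e-07).

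The deposited peaks allowed the promoters of these genes to be described, with 1 peak list per assay and condition and hence no test between conditions. The paper states that replicates were merged for ATAC-seq and for the histone marks. It kept Pax7 sites seen in at least 2 samples with Dox and in none without. ATAC-seq marks accessible chromatin, H3K4me3 and H3K27Ac mark active promoters, and H3K27me3 marks promoters repressed by Polycomb. Of the tested genes 13488 had a start site in the GENCODE M1 annotation of mm9, 2475 of them higher in iPax7 +Dox and 3297 higher in SC. An ATAC peak of iPax7 +Dox lay within 1 kb of the start site for 96.7% of the genes higher in iPax7 +Dox (Wilson 95% interval over genes 95.9 to 97.3), 80.0% (78.6 to 81.3) of those higher in SC and 88.7% of all genes tested. For ATAC peaks of SC the shares were 89.3, 80.9 and 85.0%, so the genes higher in SC did not have peaks more often than all genes even in SC.

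Histone marks in iPax7 +Dox followed the same division. H3K27Ac lay at 89.2% of the genes higher in iPax7 +Dox and 57.8% of those higher in SC, against 73.1% of all, and H3K4me3 at 95.9 and 77.5% against 87.3%. H3K27me3 lay at 10.4% of the genes higher in iPax7 +Dox and 31.7% of those higher in SC, against 20.2% of all. Pax7 peaks within 50 kb were found near 16.5 and 13.2% against 14.6%. Intervals cover counting error over genes only, and genes are not independent replicates.

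**Figure D5:**
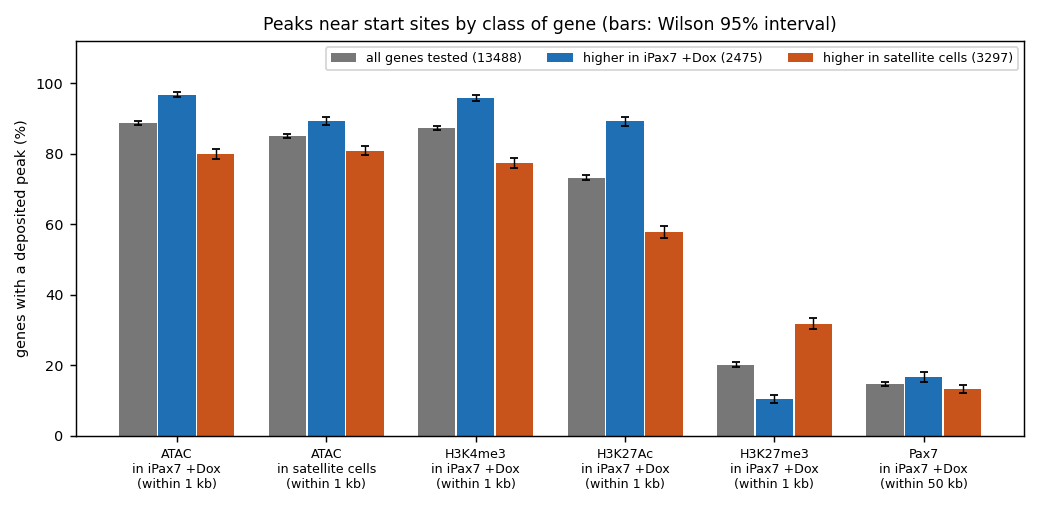
Percent of genes (y axis) with a deposited peak near the start site, for all genes tested, genes higher in iPax7 +Dox and genes higher in SC; error bars are Wilson 95% intervals over genes. H3K27Ac in iPax7 +Dox falls from 89.2% of genes higher in iPax7 +Dox to 57.8% of genes higher in SC, and H3K27me3 goes from 10.4 to 31.7%.

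Most genes higher in SC were accessible in both conditions. Of the 3297 located, 2509 (76.1%) had an ATAC peak in both, 157 (4.76%) in SC only, 128 (3.88%) in iPax7 +Dox only and 503 (15.3%) in neither. Over all genes tested these shares were 83.2, 1.79, 5.49 and 9.49%. The ATAC lists differed in size, with 135564 peaks in iPax7 +Dox and 90464 in SC, which bears on every count of peaks in a single condition. All 50 immediate-early genes tested had a peak in both, and so did 92 of 93 located mitotic genes. Of the 44 satellite identity genes located 41 had a peak in both and 3 in SC only. Calcr (chr6:3635677-3714713), Myod1 (chr7:53631844-53634462) and Musk (chr4:58298834-58390290) were among the genes with a peak in SC only. The Pax7 gene itself had an ATAC peak in SC and none in iPax7 +Dox, where it carried an H3K27me3 peak and neither H3K4me3 nor H3K27Ac within 1 kb, next to the Pax7 counts given above that include the transgene.

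Hox promoters had H3K27me3 in iPax7 +Dox at all 18 tested members and H3K27Ac at 3. Blood and immune markers had no ATAC peak in either condition for 20 of 31 located and none in SC only, whereas 5 had a peak in iPax7 +Dox only. Where both conditions had a peak its height could differ, with a highest fold enrichment at Hmga2 of 21.6 in iPax7 +Dox and 3.32 in SC, and at Gpx3 (chr11:54715955-54723879), Sod3 and Msc of 3.44, 3.44 and 4.22 in iPax7 +Dox and 16, 18.8 and 17.6 in SC. Heights were not scaled between the samples, and at Actb, whose RNA overlapped, they were 66.6 and 13.9. At Fgfr4 and Atf3, whose RNA was higher in SC, the larger height was in iPax7 +Dox, as at Actb. Fgfr4 lay at 54.3 in iPax7 +Dox and 4.69 in SC, and Atf3 at 69.7 and 13.3. Without scaling, these heights do not show in which condition a promoter was more accessible. Igf2bp1, Krt8 and Nefl had a peak in iPax7 +Dox only. Notch3 also had a peak in iPax7 +Dox only, while its RNA was higher in SC. Mstn had a peak in SC only, while its RNA was higher in iPax7 +Dox.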

How the data were processed

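For each RNA library the authors deposited a table of unnormalized read counts by gene symbol, in the layout of HTSeq-count. The submitters' processing notes name Trimmomatic 0.32, Bowtie2, TopHat2, HTSeq 0.6, MACS2 2.0.10 and mm9, and the strand setting is not given in the sources used here. Rows that name no gene (reads without a feature, ambiguous or not uniquely aligned) were dropped. After TMM normalization, 14836 of 24466 genes passed filterByExpr and entered the quasi-likelihood test of edgeR 4.0.16 under R 4.3.3, with 1 mean per condition over 8 libraries. Normalized counts are counts divided by effective library size, times the geometric mean of those sizes. The SE is the absolute log2 fold change over the root of its F statistic. Lower bounds of a fold use a floor of 3 counts in each library of the group at 0. With 50 genes changed at each size in data simulated on 14836 genes, the test called 2, 62, 88 and 92% at 2-, 4-, 8- and 16-fold, with 6 false calls. The simulation changed far fewer genes than the 42.1% called here, which makes its adjusted p stricter. A call also needs an estimated change of at least 2-fold. These shares therefore do not give the sensitivity of the comparison itself.

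ATAC-seq peaks came as deposited MACS2 narrowPeak files with fold enrichment (a ratio), −log10 p and −log10 q values. ChIP-seq peaks came as deposited lists of mm9 coordinates with no score. A gene had a peak where one lay within 1 kb of its start site (50 kb for Pax7). Each gene list and gene named was chosen with earlier results of these data known. Named genes were the 12 with the largest fold change in each direction (no overlap, and averaging 1000 normalized counts or more where higher), genes marked in each list whether or not called, and up to 3 called genes with the largest fold change per list and direction. Alternatives used DESeq2 1.42.0, limma-voom (limma 3.58.1), other normalizations and filters, a replicate block, and leaving out each of the 6 libraries in turn. Some genes that this rule names are not reported here.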

Additional observations from a re-analysis of the deposited data

How the results depend on the processing

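Against 2707 genes higher in iPax7 +Dox and 3545 higher in SC, the counts were 2869 and 3415 with upper-quartile and 2588 and 3686 with RLE normalization, 2632 and 3460 without a filter, 2663 and 3099 with the 6 libraries alone, 2765 and 3512 with the 50 most abundant genes left out of the normalization, 3135 and 3768 with limma-voom, and 2832 and 3891 with DESeq2. Requiring at least 10 CPM in 3 libraries gave 2199 and 2338, with fewer genes tested (8937). Fits that each left out 1 library gave 2328 to 2908 and 2784 to 3321. The median log2 fold change of all genes lay between -0.42 and 0.04. Over all alternatives, named genes called in the main fit reversed in 0 cases and lost the call in 122. Named genes not called in the main fit gained a call in 33 cases. The sign of genes that stayed uncalled was not counted, and it changed for some, e.g. Pax9 (log2 fold change -1.53 to 2.19). Of 1500 counts of list members, 109 moved by over 1.5 times. Replicate numbers did not pair the libraries, since deviations of same-numbered libraries correlated at -0.0398, 0.0272 and -0.0154, and a fit with the replicate number as a block gave 2307 and 2669.

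With 2 kb in place of 1 kb, ATAC peaks of iPax7 +Dox lay at 90.55% of all genes tested, 97.33% of those higher in iPax7 +Dox and 83.08% of those higher in SC. ATAC peaks of SC lay at 86.37% of all and 82.5% of those higher in SC, H3K4me3 at 88.23 and 78.89%, H3K27Ac at 74.3% of all, and H3K27me3 at 26.16% of all, 15.88% of those higher in iPax7 +Dox and 38.49% of those higher in SC. With only the higher-scoring peaks, the shares for all genes, those higher in iPax7 +Dox and those higher in SC were 82.04, 92.89 and 70.15% for iPax7 +Dox ATAC peaks and 76.1, 78.99 and 73.13% for SC ATAC peaks. The ChIP lists hold no score, so this was not run on them. Intervals and floors cover counting error only.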
